A study of Sus scrofa with 12 samples.

Results

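The miR-29 family of microRNAs was followed in pig testis, in small RNA libraries of 2 commercial breeds. Its members were all names in the small RNA files that begin with miR-29 followed by a, b or c, which gave 4 names out of 765: miR-29a-3p, miR-29a-5p, miR-29b and miR-29c. They stood on 5 rows, because miR-29b is listed once under each of its 2 precursors with the same reads in all 6 libraries, and it was counted once. All 4 passed the filter on low values (at least 1 RPM, reads scaled to the library total by the authors, in at least 3 of the 6 libraries), as did 421 of the 765 names.

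The study sequenced testis RNA and small RNA from several pig breeds. The groups used here were Western Duroc and Large white, with 3 small RNA libraries each, all from adult males 12 months old of no stated genetic modification or treatment. The labels do not tie libraries to separate animals, so the spread between libraries may be technical in part. The Diannan small-ear breed, which the series also names, was not analysed here.

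MicroRNAs of the miR-29 family share the seed, the short stretch near the 5′ end that pairs with target mRNAs, and so can act on the same targets. They are best known for lowering the mRNAs of collagens, elastin and other proteins of the extracellular matrix, and those of the DNA methyltransferases DNMT3A and DNMT3B. In rodent testis they have been linked to DNA methyltransferase levels and to the survival of germ cells. Each precursor gives a guide strand, here the 3p arm of miR-29a, miR-29b and miR-29c, and a passenger strand, here miR-29a-5p, which carries a different seed.

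The 4 precursors lie in 2 pairs on the pig assembly Sscrofa11.1 in RefSeq's table, the assembly that the submitters' build name, susScr11, denotes. On chromosome 18, MIR29B-1 spans 18039629 to 18039709 and MIR29A spans 18040032 to 18040117, with 322 bases between them. Both lie outside any other listed gene, and the nearest is a long non-coding RNA that ends 1299 bases before MIR29B-1. On chromosome 9, MIR29B-2 spans 135019079 to 135019162 and MIR29C spans 135019638 to 135019725, with 475 bases between them. Neither lies within another listed gene, and CD46, which codes for a complement regulatory protein, begins 5713 bases beyond MIR29C. Both pairs thus contain a miR-29b precursor, and the reads of miR-29b cannot be assigned to one or the other.

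The small RNA libraries of Duroc held 3473206 to 13209412 reads and those of Large white 1481386 to 2483001, counting each row. A floor of 3 reads corresponds to 0.227 to 2.03 RPM. Duroc libraries 1 and 3 differed from the rest in their cell type markers: miR-34c, a microRNA of meiotic and later germ cells and the only one of that list's 5 names analysed here, held 0.129% and 0.329% of their reads, while Duroc library 2 had 2.07% and the Large white libraries 1.41% to 2.17%. miR-143-3p of smooth muscle held 51.5%, 25.5% and 35.5% of the reads of Duroc libraries 1 to 3, against 18.9%, 22.0% and 29.5% for Large white. The 7 tested names of the smooth muscle and stroma list did not all go with it. With reads scaled to the library total, their median log2 fold change, Duroc minus Large white, was -0.25, against -0.56 for all names tested. The gonadal miR-202-5p and miR-202-3p, markers of Sertoli and Leydig cells, were present in every library, with a summed share of 0.451% and 0.813% in Duroc libraries 1 and 3 and 1.33% to 1.69% in the other 4. The summed share of the spermatogonia list was likewise low there, at 0.0839% and 0.181% against 0.331% to 0.430%. So was that of endothelium, at 0.617% and 0.942% against 1.05% to 1.32%. That of striated muscle was 0.354%, 0.414% and 0.393% in Duroc libraries 1 to 3, all below the 0.665% to 0.852% of Large white. That of red blood cells overlapped. The 5 most abundant names took 78.9% and 71.7% of reads in Duroc libraries 1 and 3, against 55.4% to 60.4% elsewhere. With TMM scaling, described below, 3 spermatogonia names were higher in Duroc and 3 lower, and Sertoli and Leydig cells had 1 each way. On that scale the 2 endothelium names were higher in Duroc, and striated muscle had 2 each way. The low shares of these lists thus depended on the scale. In such bulk samples, fewer cells of a type and less RNA per cell cannot be told apart. The part of these differences in the miR-29 results was not tested, and values without Duroc libraries 1 and 3 are given where they differ by more than 1.5 times.

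The guide strand of miR-29a was by far the most abundant member in each library. It ranked between 54 and 80 among all names, had 1376 to 7119 reads per library and made up 87.3% to 93.4% of the family's reads. miR-29b ranked 175 to 216 with 94 to 319 reads, and miR-29c ranked 172 to 226 with 68 to 405 reads. The passenger strand miR-29a-5p had 3 to 14 reads per library, so that its 3 reads in Duroc library 2 are at the floor. The lowest level of miR-29a-3p, 539 RPM, lay above the highest of miR-29b, 75.6 RPM, and the lowest of miR-29c, 21.0 RPM, above the highest of miR-29a-5p, 4.43 RPM. The levels of miR-29b and miR-29c overlapped across libraries, and miR-29b had more reads than miR-29c in 5 of 6, the exception being Duroc library 1.

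On the deposited RPM scale, all 4 members were lower in Duroc than in Large white, with no overlap between the breeds. miR-29a-3p had 539, 650 and 742 RPM in Duroc libraries 1 to 3, against 929, 952 and 909 RPM in Large white libraries 1 to 3. All Duroc libraries thus lay below all Large white ones, and the Large white values were close together. miR-29b had 24.2, 37.1 and 30.0 RPM in Duroc, against 75.6, 66.1 and 58.7 RPM in Large white. For this member the mean was 2.19 times higher in Large white, at 66.8 ± 8.46 against 30.4 ± 6.51 RPM (SD, n = 3 per breed). miR-29c had 30.7, 31.1 and 21.0 RPM in Duroc, against 55.4, 46.7 and 42.5 RPM in Large white, where the mean was 1.75 times higher. miR-29a-5p had 1.06, 0.860 and 1.31 RPM in Duroc, against 4.05, 4.43 and 2.50 RPM in Large white. Its 95% counting intervals were wide, for example 0.178 to 2.52 RPM in Duroc library 2 and from 0.681 to 6.40 RPM in Large white library 3.

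This absence of overlap was common on that scale. Of the 421 names tested, 91 (21.6%) lay lower in all Duroc libraries and 11 (2.61%) lay higher. With reads scaled to the library total, 81.7% of names had a lower mean in Duroc, and their median log2 fold change, Duroc minus Large white, was -0.56. TMM, a scaling that takes most names as unchanged between libraries, brought that median to 0.06. The TMM factors of Duroc libraries 1 to 3 were 0.464, 1.31 and 0.792, and those of Large white were 1.15 to 1.36.

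After TMM scaling only miR-29b kept the breeds apart, as 1 of 4 members, where 48 of the 421 names (11.4%) lay lower in all Duroc libraries and 50 (11.9%) higher. On this scale miR-29b had 55.1, 31.8 and 40.5 RPM in Duroc libraries 1 to 3, against 62.7, 56.3 and 56.6 RPM in Large white. The gap was narrow, as Duroc library 1 lay just below the lowest Large white library. miR-29a-3p had 1229, 557 and 1001 RPM in Duroc, against 771, 811 and 876 RPM in Large white, so that Duroc libraries 1 and 3 now lay above Large white and Duroc library 2 below it. miR-29c had 69.9, 26.6 and 28.3 RPM in Duroc, against 45.9, 39.8 and 41.0 RPM in Large white, with Duroc library 1 above and the other Duroc libraries below. miR-29a-5p had 2.42, 0.740 and 1.77 RPM in Duroc, against 3.36, 3.78 and 2.41 RPM in Large white, with Duroc library 1 level with Large white library 3.

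**Figure D1:**
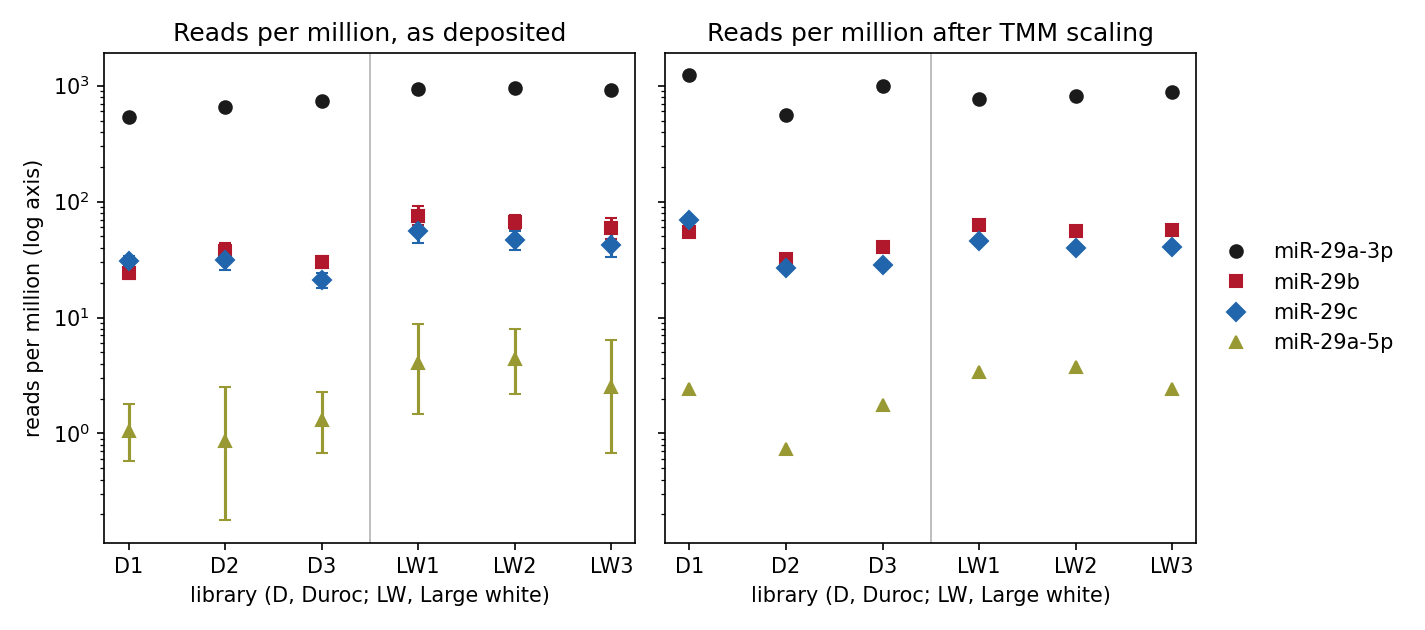
Levels of the 4 miR-29 members in each library in RPM on a log axis, as deposited (left, bars are 95% Poisson counting intervals) and after TMM scaling (right). On the left each member is lower in all Duroc libraries, and on the right only miR-29b keeps the breeds apart, with miR-29a-3p at 1229, 557 and 1001 in Duroc against 771 to 876 in Large white.

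By edgeR's quasi-likelihood test with TMM scaling, none of the 4 members differed between the breeds past an adjusted p of 0.05, nor did any of the 421 names (0%). Before adjustment 60 names (14.3%) lay under 0.05, with no member among them. DESeq2 called 14 names (3.33%), with no member among them, and gave no adjusted p for miR-29a-5p. limma on log2(RPM + 1), which keeps the deposited scale, called 0 names; miR-29b and miR-29a-5p were among the 83 (19.7%) with an unadjusted p under 0.05 there. In the edgeR fit 3 of the 4 members had a negative log2 fold change (Duroc minus Large white), as did 46.8% of all names. The log2 fold change was 0.18 for miR-29a-3p (SE 0.31, edgeR adjusted p = 0.809), with 929 ± 342 normalised RPM for Duroc and 819 ± 53.3 for Large white (SD, n = 3 per breed). It was -0.46 for miR-29b (SE 0.29, edgeR adjusted p = 0.421), with 42.5 ± 11.8 and 58.5 ± 3.62 normalised RPM. For miR-29c, with 41.6 ± 24.5 and 42.2 ± 3.25 normalised RPM, it was -0.02 (SE 0.40, edgeR adjusted p = 0.979). For miR-29a-5p it was -0.93 (SE 0.60, edgeR adjusted p = 0.443). The spread of Duroc was several times that of Large white for the first 3 of these, and a p that misses the threshold does not show equal levels.

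The direction of miR-29a-3p depended on the scaling, while miR-29b and miR-29a-5p were lower in Duroc under every setting run. With reads scaled to the library total the log2 fold change was -0.58 for miR-29a-3p, -1.19 for miR-29b, -0.86 for miR-29c and -1.79 for miR-29a-5p. Their median was -1.02, against -0.56 for all names tested, and with TMM it was -0.24 against 0.06. No member passed with total scaling either. The edgeR adjusted p-values were 0.386 to 0.451, and before adjustment miR-29b and miR-29a-5p were among the 51 names (12.1%) under 0.05 that were lower in Duroc. Leaving out Duroc library 1 gave a log2 fold change of -0.07 for miR-29a-3p and -0.62 for miR-29c. The value of miR-29c, near 0 with all libraries, was 0.22 without Duroc library 2, 0.20 without Duroc library 3 and 0.07 without Large white library 1. With Duroc library 2 as the only Duroc library, and the spread taken from Large white, the log2 fold change was -0.53 for miR-29a-3p, -0.85 for miR-29b, -0.63 for miR-29c and -2.04 for miR-29a-5p (edgeR adjusted p = 0.369 to 0.524).

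**Figure D2:**
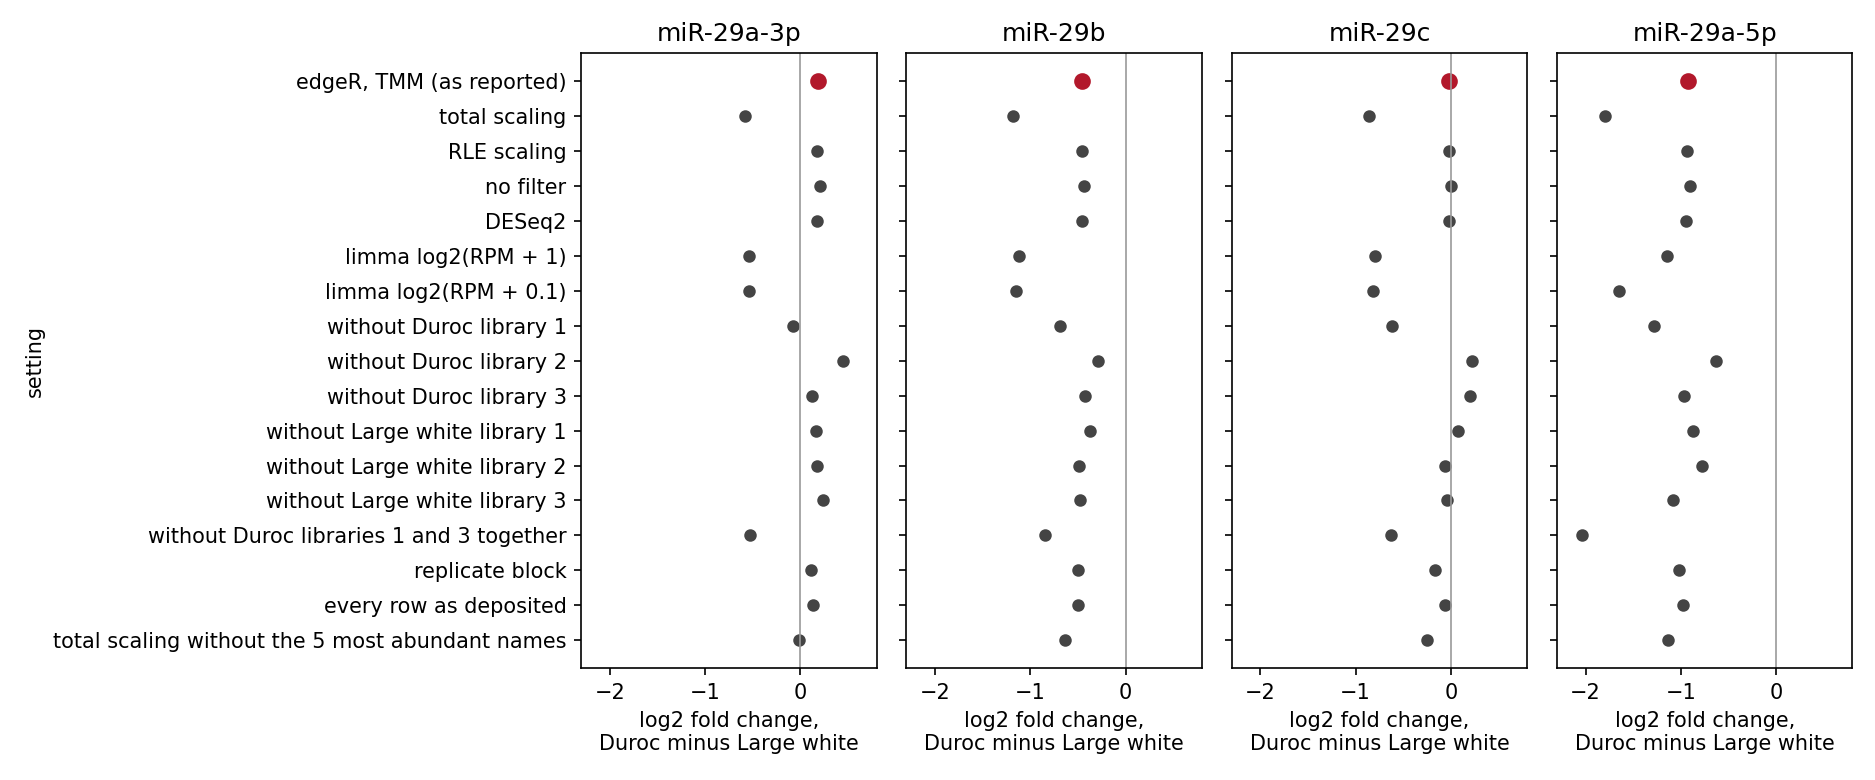
Log2 fold change (Duroc minus Large white) of each miR-29 member under each processing setting, with the reported fit in red and 0 marked by a line. miR-29b and miR-29a-5p lie below 0 throughout, whereas miR-29a-3p ranges from -0.58 to 0.44 and miR-29c from -0.86 to 0.22.

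The family as a whole followed its main member. It held 0.0630%, 0.0805% and 0.0849% of reads in Duroc libraries 1 to 3, against 0.120%, 0.121% and 0.113% for Large white libraries 1 to 3. Its mean was 1.55 times higher in Large white, at 0.118 ± 0.00457% against 0.0761 ± 0.0116% (SD, n = 3 per breed), and the breeds did not overlap. The exact two-sided permutation test gave p = 0.1, the smallest that 3 libraries against 3 allow. The 5 most abundant names, miR-143-3p, miR-148a-3p, miR-99a-5p, miR-26a and miR-21-5p, took 59.5% to 78.9% of reads in Duroc and 55.4% to 60.4% in Large white. Of all reads left without those 5, the family held 0.299%, 0.199% and 0.300% for Duroc and 0.269%, 0.276% and 0.284% for Large white, with an exact p of 1. On this base Duroc libraries 1 and 3 lay above all Large white libraries and Duroc library 2 below them. With TMM scaling the direction of the means turned, and the summed family had 1015 ± 373 normalised RPM for Duroc against 923 ± 48.0 for Large white (SD, n = 3 per breed; exact permutation p = 0.7).

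**Figure D3:**
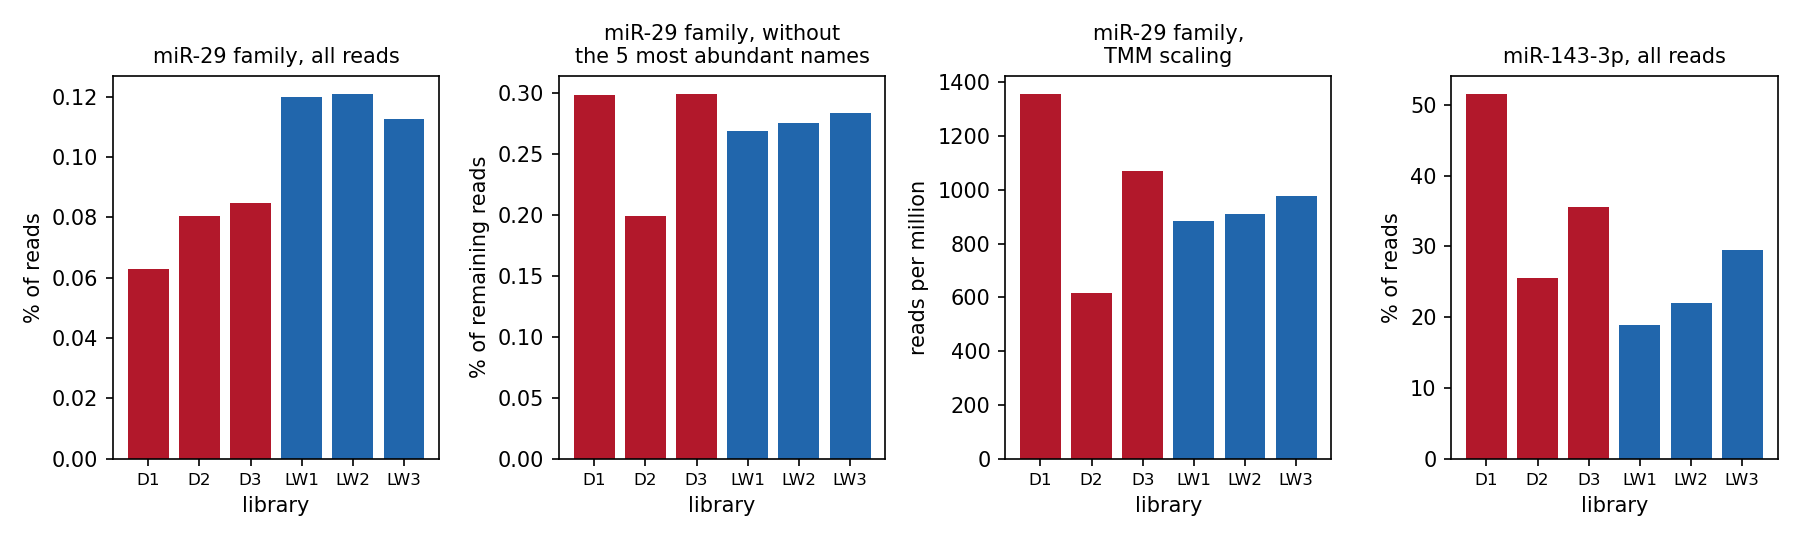
Share of the miR-29 family in each library, of all reads, of reads without the 5 most abundant names, and as TMM-scaled RPM, beside the share of miR-143-3p (Duroc red, Large white blue). The family is lower in all Duroc libraries in the first panel, at 0.0630% to 0.0849% against 0.113% to 0.121%, and overlaps between breeds in the other 2 panels of the family.

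Ratios between members within a library need no scaling between libraries, and 4 of them were compared. Reads of miR-29a-3p outnumbered those of miR-29b by 22.3, 17.5 and 24.7 times in Duroc libraries 1 to 3, and by 12.3, 14.4 and 15.5 times for the 3 Large white ones. All Duroc libraries thus had fewer reads of miR-29b relative to those of miR-29a-3p, which cannot tell less miR-29b from more miR-29a-3p. The closest libraries of the breeds were Duroc library 2 and Large white library 3, with 129 and 94 reads of miR-29b. Their 95% exact binomial intervals for its share of the family overlapped, at 4.33% to 6.10% and 4.71% to 7.05%. The mean log2 ratio was 4.41 ± 0.26 for Duroc and 3.81 ± 0.17 for Large white (SD, n = 3 per breed), a difference of 0.61 or 1.52-fold. The exact permutation p was 0.1, the smallest possible, and 0.2 adjusted over the 4 ratios. Set against 388 names outside the family with reads in every library, the ratio of miR-29a-3p was higher in all Duroc libraries for 17 (4.38%) and lower in all for 40 (10.3%). For Duroc library 2 alone the log2 difference from Large white was 0.32, or 1.87 times smaller than with all libraries.

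The guide strand of miR-29a outnumbered its passenger strand by 509, 753 and 566 times in Duroc and by 229, 215 and 364 times in Large white. These ratios did not overlap either, with a mean log2 difference of 1.20 and an exact permutation p of 0.1 (0.2 adjusted). They rest on the few reads of miR-29a-5p, 14, 3 and 12 for Duroc and 6, 11 and 4 for Large white. The 95% exact binomial intervals of its share of the family overlapped between breeds, for example 0.0974% to 0.299% in Duroc library 1 against 0.207% to 0.740% in Large white library 2.

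miR-29c did not separate the breeds relative to the other members. The ratio of miR-29a-3p over miR-29c was 17.6, 20.9 and 35.4 for Duroc and 16.8, 20.4 and 21.4 for Large white, so that only Duroc library 3 lay outside the Large white range by a wide margin (exact permutation p = 0.5). The mean log2 difference was 0.28, which was -0.02 without that library and 0.11 for Duroc library 2 alone. The ratio of miR-29b over miR-29c was 1.37, 1.41 and 1.38 in the Large white libraries and 0.788, 1.19 and 1.43 in Duroc (exact permutation p = 0.4). The Large white ratios rest on 112, 164 and 94 reads of miR-29b and 82, 116 and 68 of miR-29c. The 95% counting intervals are wide, for example 76.0 to 115 and 52.8 to 86.2 reads in Large white library 3. The closeness of these ratios therefore does not show a fixed proportion. Among the Duroc libraries, library 3 lay close to Large white and only library 1 had more miR-29c than miR-29b. The mean log2 difference of this ratio between the breeds was -0.33, and -0.22 for Duroc library 2 alone. In Duroc library 1, miR-29c took 5.15% of the family (95% exact binomial interval 4.68% to 5.67%) and miR-29b 4.06% (3.63% to 4.52%), the reverse of their order elsewhere. In Duroc library 3 miR-29c took 2.64% (2.28% to 3.03%), its lowest share. miR-29a-3p and miR-29c have near-identical sequences, and reads with an error could count for the other member.

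**Figure D4:**
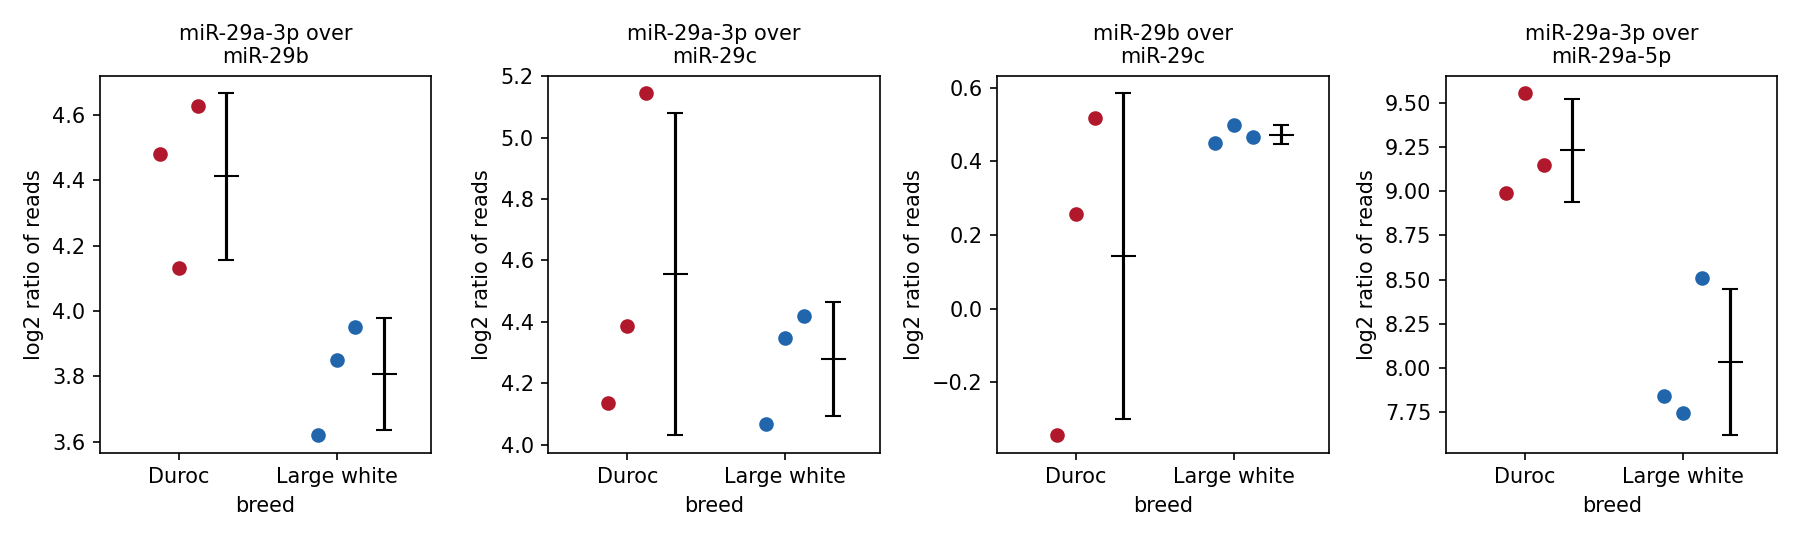
Log2 ratio of reads between miR-29 members within each library, with points for the 3 libraries of each breed and the mean ± SD beside them; each panel has its own axis range. The ratios of miR-29a-3p over miR-29b (4.41 against 3.81 on average) and over miR-29a-5p do not overlap between Duroc and Large white, while those over miR-29c do.

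Within the family, the share of miR-29b was 4.06%, 5.16% and 3.78% for Duroc and 7.11%, 6.18% and 5.80% for Large white. The means were 4.33 ± 0.731% and 6.36 ± 0.673% (SD, n = 3 per breed; exact permutation p = 0.1, adjusted over the 4 members 0.133). The share of miR-29a-3p was 90.6%, 90.4% and 93.4% for Duroc and 87.3%, 89.0% and 89.8% for Large white, again without overlap and with the same p. For Duroc library 2 alone the difference from Large white was -1.20 percentage points for miR-29b and 1.69 for miR-29a-3p, against -2.03 and 2.77 with all libraries. Without Duroc library 3 the difference was 1.80 for miR-29a-3p (exact permutation p = 0.2). Adding up the repeated rows, which counts the reads of miR-29b once for each precursor, gave -3.66 for miR-29b and 4.28 for miR-29a-3p. For miR-29a-3p, the 95% exact binomial interval of Duroc library 2, 89.2% to 91.5%, overlapped with that of Large white library 3, 88.2% to 91.2%. For miR-29b, that of Duroc library 2, 4.33% to 6.10%, overlapped with those of all Large white libraries, which began at 5.89%, 5.29% and 4.71%. The miR-29b intervals of Duroc libraries 1 and 3 ended below these, at 4.52% and 4.24%. The share of miR-29c overlapped between breeds, at 4.04 ± 1.28% and 4.59 ± 0.538% (exact permutation p = 0.6), a difference of -0.551 percentage points that was -0.268 for Duroc library 2 alone.

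Set beside 3 other small families of testis microRNAs, the ratio of the miR-29 family overlapped between the breeds. The log2 ratio of its reads to those of the miR-30 family was -3.88 ± 0.48 for Duroc and -4.16 ± 0.16 for Large white (SD, n = 3 per breed; exact permutation p = 0.4). To miR-15, miR-16, miR-195 and miR-497 it was -0.85 ± 0.55 and -1.26 ± 0.10 (exact permutation p = 0.4), and to the miR-181 family -0.73 ± 0.31 and -0.82 ± 0.07 (exact permutation p = 0.7). Adjusted over the 3, these were 0.6, 0.6 and 0.7. The miR-30 family was the most abundant, with 0.759% to 2.41% of reads.

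The microRNAs whose levels were most like those of the summed family differed with the scale. On log2 TMM-scaled levels over the 6 libraries these were miR-181a (Pearson r = 0.981), miR-320 (0.979), let-7f-5p (0.976), miR-10b (0.958) and miR-26b-5p (0.955), out of 296 named ones. On log2 shares of reads they were miR-10b (0.980), miR-26a (0.967), miR-9843-3p (0.966), miR-19a (0.964) and miR-101 (0.954), so that only miR-10b was on both lists. The 6 points share their library and its scale factor with both measures, and Duroc library 1 was an extreme on both. Among the members, the correlation with miR-29a-3p on TMM-scaled levels was 0.485 for miR-29b and 0.661 for miR-29c over the 6 libraries. On shares of reads it was 0.940 and 0.707, so that the order of these members also differed with the scale. In rank of mean share, miR-29a-3p stood between miR-7134-3p and miR-450b-5p, miR-29b between miR-455-3p and miR-193a-5p, and miR-29c between miR-345-3p and miR-296-3p. The ranges of these neighbours overlapped with those of the member in each case.

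Other microRNAs tied to the same targets or to testis cell types did not pass either. Of 4 tested names that act on DNA methyltransferase mRNAs beside miR-29, 3 had a positive log2 fold change and 1 a negative one, with a median of 0.45, and miR-148a-3p, the most abundant, had 0.74 (edgeR adjusted p = 0.353). Of 8 named in tissue fibrosis, 4 were positive and 4 negative, with a median of -0.01, led by miR-26a at 0.47 (edgeR adjusted p = 0.517). All 7 of smooth muscle and stroma were positive with TMM scaling, with a median of 0.60 that was -0.25 with total scaling, and miR-143-3p had 1.65 (edgeR adjusted p = 0.270). miR-34c had -0.94 (edgeR adjusted p = 0.430). The 6 of spermatogonia had a median of -0.19, with 3 in each direction, led by miR-182 at -1.30. The median was 0.14 for the 2 of endothelium (miR-126-3p 0.27), 0.58 for the 3 of red blood cells, with miR-451 as the median, 0.41 for the 4 of striated muscle (miR-1 -0.16) and 0.09 for the 2 of Sertoli and Leydig cells (miR-202-5p -0.22). Over all names tested the median was 0.06 with TMM scaling and -0.56 with total scaling. With total scaling, the medians of all these lists were below 0 too. They lay on both sides of that of all names, from -1.15 for miR-34c to -0.08 for red blood cells.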

How the data were processed

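Small RNA libraries (TruSeq small RNA kit, single-end) of testis were analysed, 3 per breed. The submitters' processing notes name Bowtie 1.3.1, Salmon 1.9.0, STAR 2.7.10a and the build susScr11; which tool made the small RNA values is not given in the sources used here. Per the file headers, the deposited small RNA files give a whole read count per mature miRNA and precursor, and the authors' RPM, which scales it to the sum over all rows. For a name on several rows the row with most reads was kept, and shares and TMM-scaled RPM use totals with each name counted once. Names were tested with edgeR 4.0.16 (quasi-likelihood, TMM, breed as the only term) in R 4.3.3, with Benjamini-Hochberg adjustment over 421 names; limma 3.58.1 and DESeq2 1.42.0 were alternatives. The SE is approximate: the log2 fold change divided by the root of the F statistic. Shares and ratios were tested by exact two-sided permutation of libraries. The edgeR code was checked on simulated data. Intervals and the floor of 3 reads cover counting error only. Same-numbered libraries of the breeds did not deviate together, so numbers were not used as pairs. The RNA libraries were not used, since no table used here pairs their transcripts with genes, and a planned description of miR-29 target mRNAs was therefore not run. The members and lists were chosen with earlier results of these data known. The names given are all members, the 5 outside names most correlated with the family on each scale, the neighbours in rank of the 3 guide strands, the most abundant tested name of each list, and the 5 most abundant names, the last chosen after values were seen.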

Additional observations from a re-analysis of the deposited data

How the results depend on the processing

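No miR-29 member passed the adjusted threshold under any of the 16 alternatives. The log2 fold change of miR-29a-3p, 0.18 with edgeR and TMM, was -0.58 with total scaling, -0.54 with limma at either pseudocount (1 or 0.1), -0.53 without Duroc libraries 1 and 3 together, and -0.0099 with total scaling that leaves out the 5 most abundant names. Leaving out 1 library gave -0.072 to 0.44 for miR-29a-3p, -1.28 to -0.63 for miR-29a-5p, -0.69 to -0.29 for miR-29b and -0.62 to 0.22 for miR-29c; the last was also 0.0043 with no filter. The cause was not tested. Without Duroc libraries 1 and 3, where Large white alone gave the spread, miR-29b had -0.85, miR-29c -0.63 and miR-29a-5p -2.04 (edgeR adjusted p = 0.369 to 0.524). The family's share of reads differed by -0.0461 to -0.0352 percentage points, Duroc minus Large white, with 1 library left out and by -0.0373 for Duroc library 2 alone. Without the 5 most abundant names it differed by -0.0106, where only Duroc library 2 lay below Large white. The log2 ratio of miR-29a-3p over miR-29b stayed higher in Duroc, by 0.50 to 0.75 with 1 library left out. That over miR-29a-5p did so by 1.04 to 1.44. With 1 library left out, the log2 difference in the ratio of miR-29a-3p over miR-29c ranged from -0.018 to 0.49, that of miR-29b over miR-29c from -0.52 to -0.08, and the family share of miR-29c from -1.11 to 0.149 percentage points. The signs of the first and last turned without Duroc library 3. With the replicate block the log2 fold changes were 0.11, -1.02, -0.50 and -0.17 for miR-29a-3p, miR-29a-5p, miR-29b and miR-29c, and the correlation of deviations between same-numbered libraries was -0.24, -0.13 and -0.06. The block changed no call. Total scaling without the 5 most abundant names, and the shares and ratios without Duroc libraries 1 and 3, were chosen after the data were seen. Depth limits miR-29a-5p most, with 3 to 14 reads per library.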
